A study of Mus musculus with 6 samples.

Results

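The NF-kappaB genes examined here were the 5 subunits of the transcription factor (Nfkb1, Nfkb2, Rel, Rela and Relb) and 5 genes that encode its inhibitors or feedback regulators (Nfkbia, Nfkbiz, Nfkbid, Tnfaip3 and Bcl3). They were chosen by gene symbol, and each of the 10 matched a single row among the 39179 genes of the deposited table. RNA was sequenced from tumor-associated macrophages (TAMs) sorted from tumors carried by C57BL/6 hosts aged 8 weeks. The tumors grew from a BRAF-mutant melanoma cell line injected under the skin, and the tumor cells were either wildtype (the Ptgs-competent group, 3 libraries) or Ptgs1/Ptgs2 deficient (the Ptgs-deficient group, 3 libraries), so that only the latter lacked both cyclooxygenases. The deficient line was made by CRISPR/Cas9 editing, and each library was a pool of tumors. Viable leukocytes (CD45+) positive for CD11b and F4/80 were sorted, leaving out cells with NK1.1, Ly6G or high Ly6C. The macrophages came from the host and were not edited in either group. The sources used here do not say whether the edited line was a single clone.

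NF-kappaB acts as dimers of its subunits. In resting cells the dimers are held in the cytoplasm by IkappaB proteins. Signals from Toll-like, IL-1 and TNF receptors activate the IkappaB kinase complex, which marks the inhibitor for degradation and frees the dimers to enter the nucleus. Their targets include cytokine and chemokine genes and also several of the inhibitors, so that the response limits itself. Macrophages are known for strong responses of this kind.

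Library totals ranged from 4431184 to 8760679 counts over 7794 to 10714 detected genes. A single gene, Gm26924, held 10.4, 11.6 and 6.83% of the counts in Ptgs-competent TAMs and 4.63, 3.31 and 1.82% in Ptgs-deficient TAMs, without overlap, and its part in the results was not tested. A count stands for a read from the 3′ end of a transcript, so that counts do not scale with transcript length. Levels are given as CPM, the counts scaled to the effective library size. How evenly different genes are captured was not tested, so comparisons of level between genes are approximate. Libraries varied widely, with a common biological coefficient of variation of 1.26 over the 8793 genes tested. Macrophage markers (14 genes, Csf1r, Cd68 and Emr1 among them) were detected throughout. Their summed level was 23630, 23980 and 9112 CPM in Ptgs-competent TAMs and was higher in every Ptgs-deficient library, at 30830, 30130 and 36920 CPM. Of the 14, 13 were fitted higher (median log2 fold change 0.94), 8 had an unadjusted p under 0.05 and 0 were called. Ptgs-competent replicate 3, the library with the lowest macrophage sum, also held the most tumor cell and stromal transcripts, at 3202 CPM over an 18-gene list against 885 and 1011 CPM in the other Ptgs-competent libraries and 226 to 347 CPM in the Ptgs-deficient libraries. Of the pigment cell genes of that list, Mlana, Pmel, Dct, Tyr and Sox10 were at 0 counts in every library, and Mitf, which macrophages also use, had 12, 0 and 3 counts against 58, 372 and 88. Genes at 0 throughout in other lists included Ly6g of the neutrophil list and Cd3e, Cd4 and Cd8a of the NK and T cell list. In all, 6 genes of the tumor cell and stromal list, 2 of the neutrophil list and 7 of the NK and T cell list were at 0. The 13-gene neutrophil list summed to 679.9, 865 and 715 CPM in Ptgs-competent TAMs and 679.3, 581 and 487 CPM in Ptgs-deficient TAMs, which all but met. The 15-gene NK and T cell list, of which Klrk1 alone was tested, summed to 2.55 to 2.80 CPM in Ptgs-competent TAMs and 17.4 to 33.7 CPM in Ptgs-deficient TAMs. The 5-gene platelet list was at 5810 to 11820 CPM and 2618 to 3249 CPM, with 1 gene (Ppbp) called lower. Only 2 of its genes were tested, and Gp9 and Gp1bb were at 0 counts in every library. In sorted bulk samples, fewer cells expressing a gene and less RNA per cell cannot be told apart. Since each library pooled several tumors, p-values measure the spread between pools and not between single tumors.

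Because the inhibitors are known targets of NF-kappaB, promoter sequences from RefSeq (GRCm38.p6, 250 bases before to 50 after an annotated start) were searched on both strands for the NF-kappaB consensus, written as 3 G, a purine, 2 bases of any kind, 2 pyrimidines and 2 C. Of the 10 genes, 7 were matched by symbol in the table (12 promoter entries), and 6 of these 7 held at least 1 match. Among all 27025 genes with such an entry, 9.55% did. Rela was the gene with an entry and no match. One match per gene is shown to let the motif be compared across subunits and inhibitors, read 5′ to 3′ on the strand of the gene, with the 10 matched bases in capitals.
Nfkbia: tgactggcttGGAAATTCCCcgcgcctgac
Tnfaip3: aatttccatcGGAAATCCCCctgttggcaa
Nfkbid: gccccgccctGGGACTTCCCagagcaccac
Bcl3: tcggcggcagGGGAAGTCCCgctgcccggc
Rel: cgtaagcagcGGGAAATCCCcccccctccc
Nfkb2: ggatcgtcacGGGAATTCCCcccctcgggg
These lie at chr12:55492657-55492686 (minus strand), chr10:19015403-19015432 (minus), chr7:30422170-30422199 (plus), chr7:19822734-19822763 (minus), chr11:23771042-23771071 (minus) and chr19:46304688-46304717 (plus), in the order shown. Relative to the start site as 0, the matched bases span -29 to -20 in Nfkbia, -12 to -3 in Tnfaip3, -226 to -217 in Nfkbid, -92 to -83 in Rel and -39 to -30 in Nfkb2. In Bcl3 they lie 2 to 11 bases past it. Those of Nfkbid, Bcl3, Rel and Nfkb2 matched on both strands. Those of Nfkbia and Tnfaip3 matched on the opposite strand, so that the consensus is read from their reverse complement. Rel and Nfkb2 also held a second match shifted by 1 base that overlaps the one shown. A match describes the sequence and does not show that the factor binds there.

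The comparison asked whether TAMs from tumors without cyclooxygenases differ in the transcripts of the NF-kappaB system. None of the 10 genes was called by the edgeR quasi-likelihood test (adjusted p up to 0.05 and an absolute log2 fold change from 1.5 upwards), where 0.216% of the genes tested were (0.159% higher and 0.0569% lower in the Ptgs-deficient group). At an unadjusted p under 0.05 there were 2, Nfkbiz and Tnfaip3, against 8.83% of all genes tested. That count was 0 without Ptgs-deficient replicate 2 and 3 without Ptgs-competent replicate 1. The edgeR likelihood ratio test, the DESeq2 Wald test and limma voom with quality weights also called 0 of the 10 genes. The fitted level was higher in the Ptgs-deficient group for 9 of the 10, with Rela the exception, against 50.7% of all genes. Their median log2 fold change was 0.87, beside 0.02 over all genes tested. Levels separated by group for Rel, Nfkbid and Nfkbiz, all higher in the Ptgs-deficient group, where 11% of the genes tested were higher without overlap. No member was lower without overlap. For each of the 10 the highest of the 6 libraries was a Ptgs-deficient one, which held for 43.8% of all genes. All 10 passed the filter on low counts, but the counts of Rel passed it only through the Ptgs-deficient libraries. Nfkbid also needed them, with 2 Ptgs-competent libraries above the cutoff where 3 libraries are required, so that of the 3 genes without overlap Nfkbiz alone would have passed in either group. The same need held for 496 of the 970 genes that were higher without overlap among all genes.

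**Figure D1:**
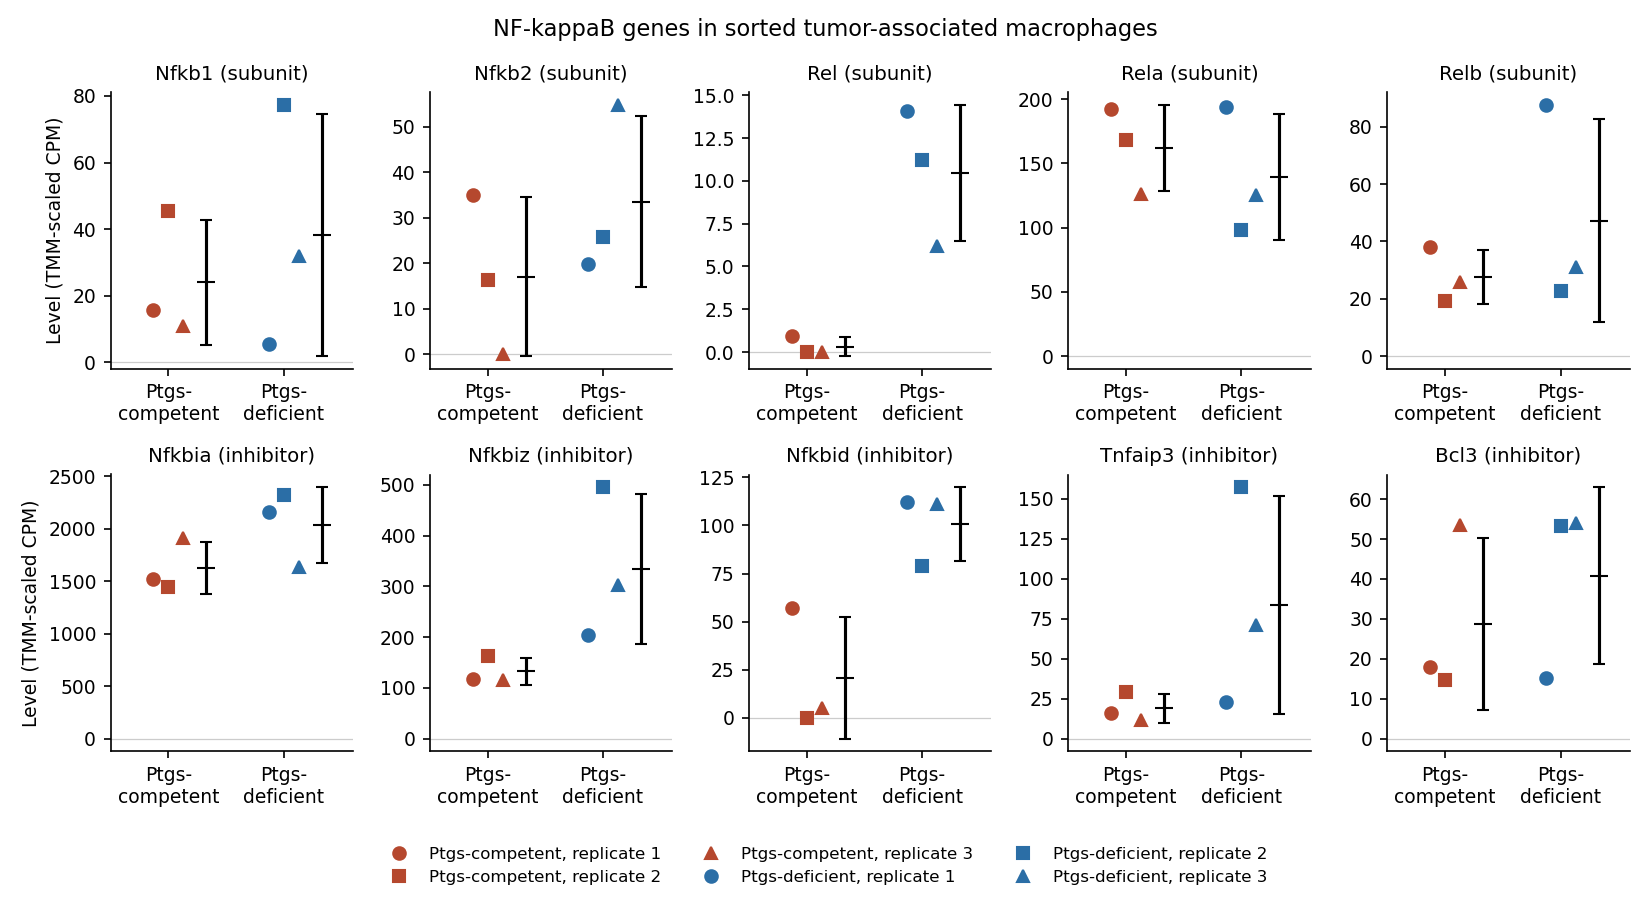
Level of each NF-kappaB gene (TMM-scaled CPM, linear axes that differ between panels) in the 3 Ptgs-competent and 3 Ptgs-deficient libraries, with marker shape giving the replicate and black bars the group mean ± SD. The groups separate for Rel, Nfkbiz and Nfkbid and overlap for the other 7 genes.

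Of the subunits, Rela was the most abundant. Rela (ENSMUSG00000024927; GRCm38 chromosome 19, 5637483 to 5648130) encodes the subunit that carries the transcription activating domain of the classical dimer. Rela measured 193, 168 and 126 CPM in Ptgs-competent TAMs, compared with 194, 98.2 and 126 CPM in Ptgs-deficient TAMs. The groups covered nearly the same range, with means of 162 ± 33.7 and 139 ± 49.2 CPM (SD, n = 3 each). The fitted log2 difference was -0.22 ± 0.42 (SE; edgeR adjusted p = 0.9995). It was -0.51 without Ptgs-deficient replicate 1 and -0.02 without Ptgs-deficient replicate 2.

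Rel, which encodes c-Rel, a subunit best known from lymphocytes and activated myeloid cells, was the least abundant member (ENSMUSG00000020275; chromosome 11, 23736847 to 23770970). It drew 6, 0 and 0 counts from Ptgs-competent TAMs, compared with 77, 94 and 30 from Ptgs-deficient TAMs. The libraries at 0 allow at most 0.490 and 0.677 CPM before TMM scaling (3 counts of the total, covering counting error only). The Ptgs-deficient libraries were at 14.05, 11.2 and 6.21 CPM, a mean of 10.5 ± 3.97 CPM (SD, n = 3) against 0.319 ± 0.552 CPM (SD, n = 3). All Ptgs-deficient libraries lay above all Ptgs-competent ones. The log2 fold change of 4.93 had a standard error of 2.78, and the edgeR adjusted p was 0.801 (0.106 unadjusted). Low counts leave its size poorly determined.

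Nfkb1 encodes the precursor of the subunit that pairs with RelA in the classical dimer (ENSMUSG00000028163; chromosome 3, 135584655 to 135691547). Nfkb1 measured 15.6, 45.5 and 10.99 CPM in Ptgs-competent TAMs, compared with 5.47, 77.4 and 31.9 CPM in Ptgs-deficient TAMs. The lowest and the highest library both belonged to the Ptgs-deficient group. The fit gave a log2 fold change of 0.67 ± 1.27 (SE; edgeR adjusted p = 0.9995), and the sign turned without Ptgs-deficient replicate 2 (-0.36).

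Nfkb2 and Relb encode the partners of the alternative pathway, which is driven by receptors such as CD40 and the lymphotoxin beta receptor. Nfkb2 (ENSMUSG00000025225; chromosome 19, 46304320 to 46312385) drew 219, 99 and 0 counts from Ptgs-competent TAMs, compared with 108, 217 and 265 from Ptgs-deficient TAMs. The corresponding levels were 34.9, 16.2 and 0 CPM against 19.7, 25.8 and 54.8 CPM. The groups overlapped, and the library at 0 was Ptgs-competent replicate 3, the one with the lowest macrophage marker sum. Its log2 fold change was 0.97 ± 1.74 (SE), and the edgeR adjusted p was 0.9995. The value was 0.43 without that library, 2.04 without Ptgs-competent replicate 1 and 2.37 under limma voom. Relb (ENSMUSG00000002983; chromosome 7, 19606217 to 19629438) was at 37.9, 19.2 and 25.9 CPM against 87.8, 22.9 and 31.2 CPM. A single Ptgs-deficient library, replicate 1, stood above the rest. The log2 fold change of Relb was 0.77 ± 0.99 (SE; edgeR adjusted p = 0.9995), and it was -0.01 without that library.

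Summed over the 5 subunits, the level was 282, 249 and 163 CPM in Ptgs-competent TAMs, compared with 321, 236 and 249.8 CPM in Ptgs-deficient TAMs. These ranges overlapped. The different subunits peaked in different libraries, with Rel, Rela and Relb highest in Ptgs-deficient replicate 1, Nfkb1 in replicate 2 and Nfkb2 in replicate 3.

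The inhibitor genes together were more abundant than the subunit genes, through Nfkbia above all. Without Nfkbia the inhibitors averaged 201 CPM against 231 CPM for the subunits in Ptgs-competent TAMs. In Ptgs-deficient TAMs they averaged 559 CPM against 269 CPM. Nfkbia (ENSMUSG00000021025; chromosome 12, 55489410 to 55492647) encodes IkappaBalpha, the classical cytoplasmic inhibitor that is degraded on activation and then made again. Nfkbia measured 1526, 1447 and 1910 CPM in Ptgs-competent TAMs, compared with 2164, 2320 and 1633 CPM in Ptgs-deficient TAMs. The groups overlapped through Ptgs-competent replicate 3 and Ptgs-deficient replicate 3. Means were 1628 ± 247.5 and 2039 ± 360.0 CPM (SD, n = 3 each). The fitted log2 change of 0.33 ± 0.29 (SE) had the smallest standard error of the 10 genes, and the edgeR adjusted p was 0.9995.

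Nfkbiz had the smallest p of the 10 genes. It encodes IkappaBzeta, a nuclear member of the family that is rapidly induced and is needed for part of the secondary response, Il6 for example (ENSMUSG00000035356; chromosome 16, 55811375 to 55838899). Nfkbiz measured 117, 164 and 116 CPM in Ptgs-competent TAMs, compared with 204, 496 and 302 CPM in Ptgs-deficient TAMs. Every Ptgs-deficient library lay above every Ptgs-competent one. Means were 132 ± 27.2 and 334 ± 148 CPM (SD, n = 3 each), a 2.52-fold difference in the fit. The log2 fold change of 1.34 ± 0.42 (SE) had an unadjusted p of 0.00945 and an edgeR adjusted p of 0.298, so that it did not pass the test over all genes. Its adjusted p ranged from 0.123 to 0.785 over the 14 alternative fits.

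Nfkbid encodes IkappaBNS, another nuclear family member (ENSMUSG00000036931; chromosome 7, 30421732 to 30428746). It drew 358, 1 and 24 counts from Ptgs-competent TAMs, compared with 616, 661 and 538 from Ptgs-deficient TAMs. In CPM this was 57.1, 0.164 and 5.17 against 112, 78.7 and 111. The Ptgs-deficient libraries were close to each other, and the Ptgs-competent ones differed widely below them. The fitted log2 difference was 2.27 ± 1.36 (SE; edgeR adjusted p = 0.840). Without Ptgs-competent replicate 1 it was 5.25, with an adjusted p of 0.219.

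Tnfaip3 encodes the ubiquitin-editing enzyme that restrains the signal above the IkappaB kinases (ENSMUSG00000019850; chromosome 10, 19000910 to 19015657). Tnfaip3 measured 16.1, 28.9 and 11.6 CPM in Ptgs-competent TAMs, compared with 22.8, 157 and 71.2 CPM in Ptgs-deficient TAMs. The groups overlapped only through Ptgs-deficient replicate 1. The fitted log2 change was 2.15 ± 0.92 (SE; unadjusted p = 0.0414, edgeR adjusted p = 0.515). Without Ptgs-deficient replicate 2, the highest library, the log2 fold change was 1.31.

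Bcl3 encodes a nuclear IkappaB protein that binds dimers without an activating domain (ENSMUSG00000053175; chromosome 7, 19808462 to 19822770). It was at 18.0, 14.8 and 53.5 CPM against 15.1, 53.2 and 54.0 CPM. Both groups held libraries between 14.8 and 18.0 CPM and libraries between 53.2 and 54.0 CPM. The fitted log2 difference was 0.51 ± 1.08 (SE; edgeR adjusted p = 0.9995). Leaving out 1 library moved this to between 0.20 (without Ptgs-competent replicate 2) and 1.36 (without Ptgs-competent replicate 3). The antisense gene Gm16174 overlaps Bcl3 and had 36, 0 and 0 counts against 109, 0 and 0. The strand setting of the counting is not given in the sources used here.

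**Figure D2:**
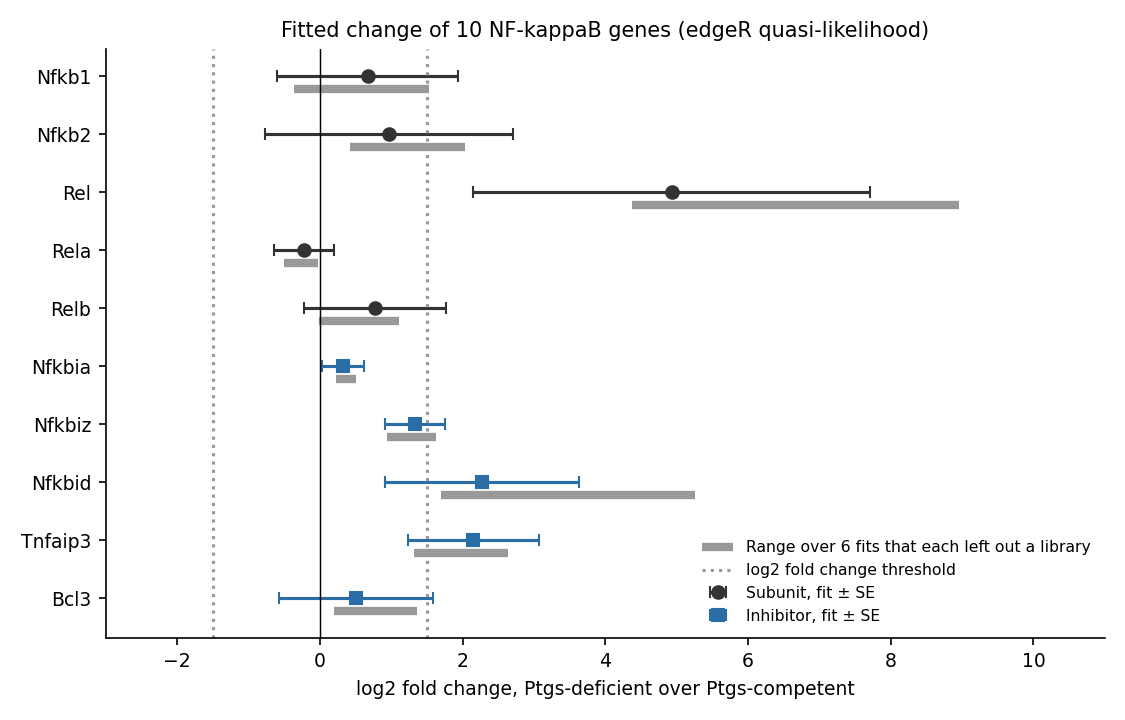
Fitted log2 fold change of each NF-kappaB gene, Ptgs-deficient over Ptgs-competent, with its standard error (points and bars) and, below each, the range over 6 fits that each left out a library (grey). Rel has the largest fitted change and the widest error, Nfkbia the smallest error, and the ranges of Nfkb1 and Relb extend past 0.

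All 5 inhibitors summed to 1734, 1655 and 2096.5 CPM in Ptgs-competent TAMs, compared with 2518, 3105 and 2172 CPM in Ptgs-deficient TAMs. The inhibitors other than Nfkbia, a sum formed after their values were seen, reached 208, 208 and 187 CPM in Ptgs-competent TAMs, compared with 355, 785 and 538 CPM in Ptgs-deficient TAMs. This smaller sum includes Nfkbid, which needed the Ptgs-deficient libraries to pass the filter on low counts. No Ptgs-deficient library fell within the range of the other group, and no test was made on this sum. Immediate-early and stress transcripts, which can rise during tissue dissociation, moved with it. A 15-gene list (Fos, Jun, Egr1, Atf3, Hspa1a and others) summed to 6252 to 7532 CPM in Ptgs-competent TAMs, compared with 12620 to 14240 CPM in Ptgs-deficient TAMs. Of these 15 genes, 13 were fitted higher, 13 had an unadjusted p under 0.05 and 0 were called. Their part in the levels of Nfkbiz, Nfkbid, Tnfaip3 and Rel was not tested. The macrophage and the NK and T cell lists were also higher in every Ptgs-deficient library, by sums given above, and the tumor cell, platelet and (narrowly) neutrophil lists were lower in every one. The part of these lists in the levels of the NF-kappaB genes was likewise not tested. Median log2 fold changes were 0.94 for the macrophage list and 1.17 for the stress list, beside 0.87 for the 10 NF-kappaB genes. They were -3.49, -0.86 and -3.77 for the tested genes of the tumor cell, neutrophil and platelet lists.

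The make-up of the family does not depend on how libraries are scaled. Nfkbia held 75.7, 76.0 and 84.5% of the counts of the 10 genes in Ptgs-competent TAMs, compared with 76.2, 69.4 and 67.5% in Ptgs-deficient TAMs. The mean share was 78.8% ± 5.01 and 71.0% ± 4.59 (SD, n = 3 each), with overlap between the groups (exact permutation test, two-sided, p = 0.3, adjusted p = 0.5 over 10 shares). Rela held 7.98% ± 2.12 and 4.98% ± 1.95 (SD, n = 3 each; exact permutation adjusted p = 0.4). The share of Nfkbiz was 5.80, 8.60 and 5.15% against 7.20, 14.8 and 12.5% (exact permutation p = 0.2, adjusted p = 0.4). Rel was the one gene whose shares did not overlap, at 0.0474, 0 and 0% against 0.495, 0.335 and 0.256%. Since its counts passed the filter only through the Ptgs-deficient libraries, this separation is a description. Taken within the subunits alone, the share of Rela differed by -20.24 percentage points (Ptgs-deficient minus Ptgs-competent), and within the inhibitors alone that of Nfkbia differed by -10.24 points. Both separated fully by group, with an unadjusted exact permutation p of 0.1, the smallest that 3 against 3 libraries can give. No share passed the test in either form, and this design could not have passed any.

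**Figure D3:**
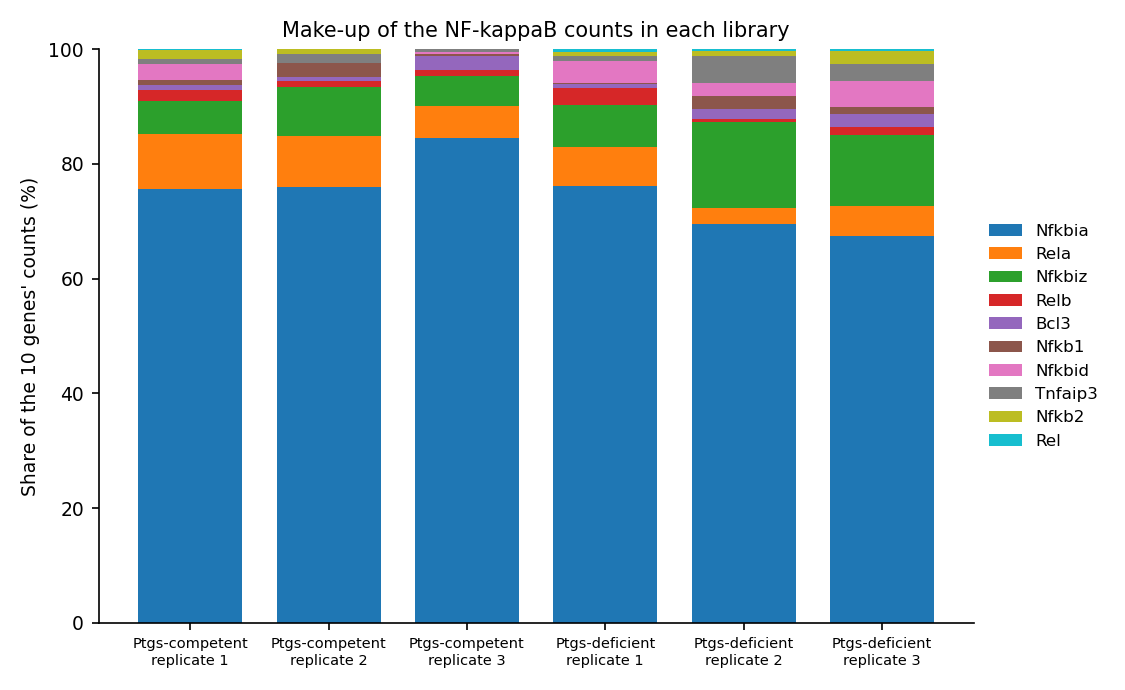
Share of the counts of the 10 NF-kappaB genes held by each gene in each library (stacked bars, percent). Nfkbia holds 67.5 to 84.5% in all 6 libraries, and the Nfkbiz segment is largest in Ptgs-deficient replicates 2 and 3.

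Across the 6 libraries, members varied together or apart. Pearson correlations of log2 CPM are given as a description, since the libraries share 2 groups and differ in depth. Nfkbiz and Tnfaip3 were the most alike pair (r = 0.97), followed by Rel and Nfkbid (0.86) and by Nfkb1 and Tnfaip3 (0.76). Rela and Bcl3 were the most opposed (r = -0.91), and Nfkb1 and Relb came next (-0.80). Outside the family, the genes most like Rela, the most abundant subunit, were Rtf1, Fnbp1 and Actl6a (r = 0.97 for each). Rtf1 was at 264, 222 and 174 CPM against 236, 159 and 176 CPM. Those most like Nfkbia, the most abundant inhibitor, were Hist3h2ba (r = 0.996), Tpt1-ps3 (0.98) and Socs4 (0.97). All 3 were low and had 0 counts in at least 1 library, with Socs4 at 0.159, 0 and 4.31 CPM against 22.6, 23.2 and 0 CPM. With 6 libraries, 31 genes correlated above 0.9 with Rela and 29 with Nfkbia.

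The wider pathway was described by 4 lists. Of 20 other inhibitors and regulators, 19 were tested and 0 were called by the edgeR quasi-likelihood test. At an unadjusted p under 0.05 there was 1 (5.26%, against 8.83% of all genes). The DESeq2 Wald test called 1 of the 19. Of the 19, 10 were fitted higher and 9 lower (median log2 fold change 0.09). The gene with the smallest p was Tnip3, which encodes a partner of the Tnfaip3 enzyme and which, like Rel, passed the filter on low counts only through the Ptgs-deficient libraries. It drew 1, 0 and 0 counts from Ptgs-competent TAMs, compared with 21, 379 and 86 from Ptgs-deficient TAMs (edgeR adjusted p = 0.376, and 0.00597 in DESeq2, the one alternative that called it). A gene that enters the test this way had to differ, so its separation is given as a description. Otud7b and Cyld, which encode deubiquitinases, and Tax1bp1, an adaptor of the same enzyme, had log2 fold changes of -2.71 ± 1.66, -1.15 ± 0.97 and -0.85 ± 0.55 (SE). None of these passed the test, with edgeR adjusted p from 0.860 to 0.9995. Single libraries moved each of them, Otud7b to -1.67 without Ptgs-competent replicate 3, Cyld to -0.41 without Ptgs-competent replicate 2 and Tax1bp1 to between -0.52 and -1.45 (without Ptgs-deficient replicates 1 and 3).

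Kinases and adaptors gave a like picture. Of 33 genes, 31 were tested, 18 fitted higher and 13 lower (median log2 fold change 0.28). The edgeR quasi-likelihood test called 0, with 1 at an unadjusted p under 0.05 (3.23%, against 8.83% of all genes). DESeq2, limma voom and the likelihood ratio test called 0. Map3k8 encodes a kinase that links this pathway to ERK. It drew 112, 0 and 0 counts from Ptgs-competent TAMs, compared with 1106, 556 and 467 from Ptgs-deficient TAMs (log2 fold change 4.34 ± 1.77 SE, edgeR adjusted p = 0.464). It was called without a filter on low counts and with the replicate number as a block (adjusted p = 0.00104 and 0.0437). Without Ptgs-competent replicate 1, the one library of its group with counts, the fitted value was 12.48 (adjusted p = 0.0568), set against 2 libraries at 0, and that of Tank likewise moved from 4.71 to 10.71. Tank, an adaptor of the TBK1 kinase, had 25, 0 and 0 counts against 240, 339 and 108 (edgeR adjusted p = 0.694). Bcl10, an adaptor of antigen and lectin receptors, and Tab2, an adaptor of the TAK1 kinase, had log2 fold changes of 2.14 ± 1.03 and -0.83 ± 0.48 (SE), with edgeR adjusted p of 0.659 and 0.825. Of the 31 genes, 6 were higher and 2 lower without overlap (19.4% and 6.45%, against 11% and 8.01% of all genes), Map3k8 and Tank among the former and Tab2 among the latter. All but Ikbke of the 6 higher genes (Map3k8, Tank, Tbk1, Rnf31 and Birc2) needed the Ptgs-deficient libraries to pass the filter on low counts, so their separation is a description and nothing is read from the share.

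Upstream receptors were fitted in both directions. Of 16 genes, 14 were tested, 6 fitted higher and 8 lower (median log2 fold change -0.16). The edgeR quasi-likelihood test called 0 and 4 had an unadjusted p under 0.05 (28.6%, against 8.83% of all genes), while the likelihood ratio test called 1 and DESeq2 and limma voom called 0. Cd14, the co-receptor for lipopolysaccharide, was at 279, 187 and 118 CPM against 568, 569 and 394 CPM (edgeR adjusted p = 0.241). Cd40, a driver of the alternative pathway, was at 12.6, 0 and 12.1 CPM against 49.1, 66.4 and 137 CPM (edgeR adjusted p = 0.528). Both were among the 3 receptors higher without overlap, and 3 were lower without overlap (21.4% each, against 11% and 8.01% of all genes). Of these 6, Cd40, Il1rl1 and Il1rap needed the group where they were higher to pass the filter on low counts, so their separation is a description and nothing is read from the shares. The IL-33 receptor gene Il1rl1 had 246, 638 and 2061 counts against 0, 80 and 0, lower without overlap (log2 fold change -5.89 ± 1.73 SE, edgeR adjusted p = 0.267). It was called by the likelihood ratio test (0.0422), with no filter (7.52e-10) and with the replicate block (0.0202). Its fitted value was -13.06 without Ptgs-deficient replicate 2 and -4.41 without Ptgs-competent replicate 3. The IL-1 decoy receptor gene Il1r2 was at 268, 166 and 74.2 CPM against 86.9, 49.7 and 42.8 CPM, with overlap (edgeR adjusted p = 0.403).

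Genes that NF-kappaB is known to induce were likewise fitted in both directions. Of 49, 39 were tested, 22 fitted higher and 17 lower (median log2 fold change 0.11). An unadjusted p under 0.05 was reached by 14, or 35.9%, against 8.83% of all genes. Without overlap, 12 were higher and 4 lower (30.8% and 10.3%, against 11% and 8.01% of all genes). Of the 12, 3 (Marcksl1, Bcl2a1d and Ccl5) needed the Ptgs-deficient libraries to pass the filter on low counts. The edgeR quasi-likelihood test called 1, or 2.56%, against 0.216% of all genes. This was the matrix metalloproteinase gene Mmp9, which was lower (log2 fold change -6.32 ± 0.56 SE, edgeR adjusted p = 0.00413). Leaving out replicate 1 of the Ptgs-competent group (0.0568) or of the Ptgs-deficient group (0.0637) ended that call. Cd83, a surface glycoprotein of activated antigen-presenting cells, was at 32.5, 72.2 and 61.6 CPM against 340, 278 and 397 CPM. The fitted log2 change was 2.61 ± 0.43 (SE), and the edgeR adjusted p of 0.0548 lay just outside the threshold. It was called by DESeq2, limma voom, the likelihood ratio test, upper quartile scaling, the replicate block and with no filter (adjusted p from 3.71e-05 to 0.0457), and not with library totals, the stricter filter or any library left out (0.0543 to 0.303). Zfp36, which encodes an RNA-binding protein that destabilizes cytokine transcripts, was at 148, 68.6 and 59.9 CPM against 275, 691 and 522 CPM (edgeR adjusted p = 0.0967). The monocyte chemokine gene Ccl2 had an edgeR adjusted p of 0.111, with a log2 fold change of 2.47 ± 0.53 (SE). Zfp36 and Ccl2 were both called by DESeq2, limma voom, the likelihood ratio test, the replicate block and with no filter (adjusted p from 6.77e-05 to 0.033 for Zfp36 and from 1.02e-06 to 0.00804 for Ccl2), and not in the other 9 alternatives (0.0722 to 0.385 and 0.1 to 0.426). Zfp36 is also on the stress list above, as is Junb, another target gene that was higher without overlap (edgeR adjusted p = 0.292). A further 10 target genes, Il6, Il1a, Nos2 and Il12b among them, had too few counts to be tested.

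**Figure D4:**
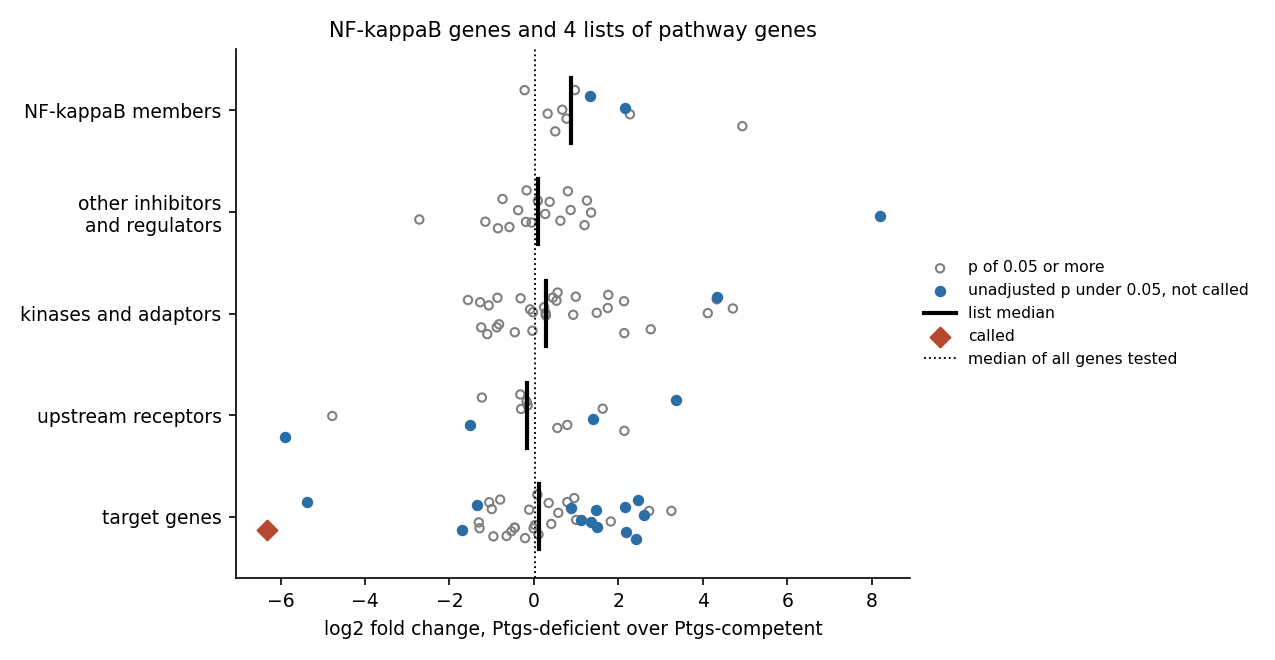
Fitted log2 fold change, Ptgs-deficient over Ptgs-competent, of the 10 NF-kappaB genes and of the tested genes of 4 pathway lists (points, with vertical scatter for legibility), with each list's median (black bar) and the median of all genes tested (dotted line). Filled blue points have an unadjusted p under 0.05, and the red diamond is Mmp9, the called gene.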

How the data were processed

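TAM RNA was sequenced with a 3′-end kit (QuantSeq FWD, 800 pg of total RNA). The authors deposited unnormalized read counts per gene, made by trimming (BBDUK, fqtrim, cutadapt), alignment to GRCm38 with STAR and assignment with featureCounts. The submitters' processing notes also name bcl2fastq and edgeR. Versions, strand setting and treatment of reads with several alignments are not given in the sources used here. No molecular identifiers were stated, so PCR copies count as reads.

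The deposited counts were compared with edgeR 4.0.16 (R 4.3.3). Genes kept by filterByExpr (minimum count 10, minimum total 15) were scaled by TMM and compared by the two-sided quasi-likelihood test (glmQLFit, glmQLFTest), with Benjamini-Hochberg adjustment over 8793 genes. The study's thresholds were used. Standard errors are the log2 fold change over the square root of F. Shares were compared by exact permutation. Correlations used log2 CPM with a prior count of 2. Gene spans come from GENCODE M21 (GRCm38), and 1 list symbol and 2 marker symbols were matched by identifier. The power of the test at the variation between these libraries (common biological coefficient of variation 1.26) was not tested.

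The members, gene lists and naming rule were chosen with earlier results of these data known. The rule named the 10 genes, the 4 genes of each list with the smallest p and any called, and the 3 genes most like the most abundant subunit and inhibitor. Alternatives were DESeq2 1.42.0, limma 3.58.1 voom, the likelihood ratio test, upper quartile or no scaling, other filters, a replicate block and leaving out each library.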

Additional observations from a re-analysis of the deposited data

How the results depend on the processing

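The number of NF-kappaB genes called was 0 in the main test and in all 14 alternative fits, with a smallest adjusted p of 0.123 (Nfkbiz, DESeq2). Over all genes the count of 19 moved to 328 with DESeq2, 252 with no filter on low counts, 241 with the likelihood ratio test, 123 with limma voom and 77 with the replicate block, and ranged from 0 (without Ptgs-competent replicate 1) to 25 when a library was left out. The cause was not tested. Among target genes the count of 1 became 5 with DESeq2, 2 with upper quartile scaling, 6 with no filter, 5 with the likelihood ratio test, 5 with limma voom and 4 with the replicate block, and 0 to 1 when a library was left out. Other inhibitors went from 0 to 1 with DESeq2, kinases and adaptors from 0 to 1 with no filter or the replicate block, and receptors from 0 to 1 with no filter, the likelihood ratio test or the replicate block. Same-numbered libraries did not deviate together (r of -0.049, -0.022 and -0.022), and the labels give the numbers no other meaning. Under limma voom the median of all genes shifted to 0.39.

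With a library left out, the log2 fold change of Nfkb1 ranged from -0.36 to 1.53 and that of Relb from -0.0112 to 1.104. Rel ranged from 4.38 to 8.95, the latter fitted against 2 libraries at 0. Differences in share, in percentage points, ranged from -0.462 to 0.645 for Nfkb1, -0.128 to 0.817 for Nfkb2, -0.358 to 0.846 for Relb and -0.282 to 0.618 for Bcl3. The direction of the other 8 fold changes and 6 shares held in every alternative run. Depth limits Rel, whose libraries at 0 allow up to 0.490 and 0.677 CPM. Nfkbid had 1 count in a library of 6128346 and 538 in a library of 5113646. The 0 of Nfkb2 fell in the library with the smallest total, 4431184 counts, and the part of depth in it was not tested.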
